A study of Mus musculus with 12 samples.

Results

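TH17 cells, the helper T cells defined by interleukin 17, were followed here through 8 genes that encode their secreted cytokines and the receptors and chemokine on which they rely. The genes were taken by name, by their symbols in the deposited table: Il17a, Il17f, Il21, Il22, Il23r, Il1r1, Ccr6 and Ccl20. All 8 were found, among 24538 rows. Of them 4 (Il21, Il17f, Il1r1 and Ccr6) had a mean value of at least 3 and were tested among 12436 genes in all, and 4 (Il17a, Il22, Il23r and Ccl20) lay below that level, and these were described by their values with exact permutation tests. Messenger RNA had been sequenced from CD4+ T cells that C57BL/6 mice yielded from spleen and peripheral lymph nodes, after culture with interleukin 6 (IL-6) and a drug that blocks the TGF-β receptor, a condition that all 12 libraries share. The 4 groups of 3 libraries were CD4cre;Smad4fl/fl cells (KO) at 3 h, WT cells at 3 h, KO cells at 12 h and WT cells at 12 h. In the KO cells a Cre recombinase driven by Cd4 acts on the floxed Smad4 gene, whose product is the shared partner of the SMAD proteins that carry TGF-β signals. The labels do not give the age of the mice, whether cells were pooled, or whether WT mice carried the Cre. The study asks whether SMAD4, with the corepressor SKI, holds back TH17 differentiation.

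IL-17A and IL-17F are related cytokines that act on epithelial and stromal cells and draw in neutrophils, and their genes lie side by side. IL-21 is made early by activated helper T cells and feeds back on them through STAT3, the factor that IL-6 also engages, while IL-22 acts on epithelial barriers. The IL-23 receptor and the IL-1 receptor, encoded by Il23r and Il1r1, receive the cytokines that sustain and amplify TH17 cells. Ccr6 encodes the chemokine receptor that marks TH17 cells, and Ccl20 its ligand. Full TH17 differentiation in culture is usually driven by IL-6 together with TGF-β, and secretion is usually read after days rather than hours.

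All values are the authors' log2 expression values, and errors on differences are standard errors (SE) of a limma model over the 12 libraries. The values are not divided by gene length, so levels are compared between groups and not between genes. Read depth cannot be seen from this table. The transform behind the values is not given either, so the folds below need not equal ratios of reads. The labelled cell type carried its markers. The 8 T cell markers found in the table averaged 13.5 to 14.0 in each library, and the lowest value was 13.3 for Cd4 and 12.8 for Cd3e. Smad4 itself ranged from 11.49 to 11.71 over all libraries. At 3 h its mean was 11.65 in KO-labelled and 11.65 in WT libraries, and at 12 h it was 11.54 in KO-labelled and 11.51 in WT libraries. A sum over the whole gene can hold reads from the part that Cre leaves, so it checks nothing about the genotype, and the KO directions below rest on the labels. The labels call all mice female. In the 4 libraries numbered 2, however, the highest Xist value was 5.70 and the lowest value of the Y-linked Ddx3y was 12.3. In the 8 others the lowest Xist value was 15.1 and the highest Ddx3y value 2.77. Each group holds 1 such library. For the 4 tested members, values without these libraries are given beside the result where a call or sign changed or the value moved by over 1.5 times. The members below the filter were not tested without these libraries, and the list genes named below were not checked without them.

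The start regions of the genes are shown because the members turned out to differ in whether they changed with time or stood apart by genotype. All 8 have an entry in the RefSeq promoter table (build GRCm38.p6), which runs from 250 bases before to 50 bases after a transcript start. These motifs were searched on both strands: the nuclear receptor half-site AGGTCA, to which RORα and related receptors bind, the STAT motif TTCNNNGAA, the AP-1 motif TGANTCA bound by BATF with JUN proteins, and the palindromic SMAD element GTCTAGAC. Capitals mark every match in the sequences below. The first is the start region of Il17f, on the minus strand at chr1:20784221-20784520. It is followed by Il17a (chr1:20730655-20730954, plus strand), by Il21 (chr3:37232587-37232886, minus strand) and by 1 of 2 start regions of Ccr6 (chr17:8235793-8236092, plus strand).
Il17f: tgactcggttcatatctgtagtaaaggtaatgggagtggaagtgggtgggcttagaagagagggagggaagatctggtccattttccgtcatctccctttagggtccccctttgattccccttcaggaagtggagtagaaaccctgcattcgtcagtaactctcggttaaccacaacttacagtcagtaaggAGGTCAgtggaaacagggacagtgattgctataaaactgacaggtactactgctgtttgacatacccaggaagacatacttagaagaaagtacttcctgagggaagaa
Il17a: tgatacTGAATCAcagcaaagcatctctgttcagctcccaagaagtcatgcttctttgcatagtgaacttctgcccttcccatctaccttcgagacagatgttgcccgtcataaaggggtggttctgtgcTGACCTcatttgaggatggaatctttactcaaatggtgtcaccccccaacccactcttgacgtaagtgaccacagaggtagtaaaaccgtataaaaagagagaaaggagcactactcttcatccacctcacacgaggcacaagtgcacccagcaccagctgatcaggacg
Il21: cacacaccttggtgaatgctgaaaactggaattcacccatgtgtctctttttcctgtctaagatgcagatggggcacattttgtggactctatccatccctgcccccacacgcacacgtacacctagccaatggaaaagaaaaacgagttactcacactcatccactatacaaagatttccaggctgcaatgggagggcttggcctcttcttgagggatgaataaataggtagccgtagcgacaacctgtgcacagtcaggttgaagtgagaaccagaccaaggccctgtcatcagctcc
Ccr6: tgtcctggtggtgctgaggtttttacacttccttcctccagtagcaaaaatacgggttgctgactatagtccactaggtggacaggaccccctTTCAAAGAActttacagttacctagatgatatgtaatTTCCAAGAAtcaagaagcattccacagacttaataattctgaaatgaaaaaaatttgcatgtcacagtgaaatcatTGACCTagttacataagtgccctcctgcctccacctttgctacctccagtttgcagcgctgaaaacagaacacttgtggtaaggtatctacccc

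The half-site was present in 5 of the 10 start regions of the 8 members, against 16.3% of 32851 start regions of the same length. It lay 58 to 53 bases before the RefSeq transcript start of Il17f and 120 to 115 bases before that of Il17a. The start region of Il17f lies inside the GENCODE gene span given below, away from the upstream end of that span. In Ccr6 it lay 44 to 39 bases before the start, and the other start region of Ccr6 had none. Il23r held it at both 229 to 224 and 66 to 61 bases before its start, and Ccl20 at 174 to 169. Il21, Il22 and both regions of Il1r1 had no match to any of the motifs. The STAT motif was found in 1 of the 10 regions, that of Ccr6, where it occurred at 157 to 149 and at 120 to 112 bases before the start, and it is present in 8.30% of all regions. The AP-1 motif was found in 1, that of Il17a, against 7.81% of all, and the SMAD element in 0, against 0.213%. These letters are a description of the sequence and carry no measurement of binding.

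Il21 and Il17f, the cytokine genes with the clearest signal, were far lower at 12 h than at 3 h in both genotypes. The Il21 gene spans 37222759 to 37232636 of chromosome 3 on the minus strand (GRCm38). In KO-labelled cells it stood at 9.66, 10.70 and 11.20 at 12 h, against 12.42, 12.56 and 12.75 at 3 h. In WT cells it stood at 9.82, 10.66 and 10.47 at 12 h, against 12.26, 12.41 and 12.46 at 3 h. No 12 h library reached the level of any 3 h library. Il21 fell by 2.06 ± 0.28 (SE, n = 3 per group), or 4.17-fold, in KO-labelled cells (limma adjusted p = 6.75e-06) and fell by 2.06 ± 0.28 in WT cells (limma adjusted p = 6.68e-06). A predicted gene, Gm12534, is annotated on the opposite strand over part of Il21, and the kit used does not mark strand, so reads of the pair could not be told apart.

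Il17f (chromosome 1, 20777146 to 20790617, minus strand) followed the same course at a value near the filter. Its KO-labelled values were 3.39, 2.91 and 2.90 at 12 h, against 4.84, 4.91 and 5.04 at 3 h. The WT values were 2.25, 2.23 and 2.54 at 12 h, against 5.39, 5.17 and 4.92 at 3 h. The times were again fully apart in each genotype. Il17f fell by 1.86 ± 0.23, or 3.63-fold, in KO-labelled cells (limma adjusted p = 2.26e-06) and fell by 2.82 ± 0.23, or 7.08-fold, in WT cells (limma adjusted p = 1.98e-08). Of the 3 WT libraries at 12 h, 2 lay within 0.03 of the lowest Il17f value of all libraries, 2.23, so the WT fall ends at the low end of what this gene showed.

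In each genotype 2 of the 4 tested members, Il21 and Il17f, were called lower at 12 h, and 1 was called higher in KO-labelled cells and 0 in WT cells. Across all genes 33.6% were called lower and 34.3% higher in KO-labelled cells, with 33.6% and 34.3% in WT cells, so the share of members is near that of the table. These are bulk libraries, in which fewer cells making a transcript and less RNA per cell cannot be told apart. Transcripts of B cells moved with time as well. Of 12 B cell markers 8 were called lower at 12 h in KO-labelled cells and 6 in WT cells, and none was at 0. Their mean level ran from 4.91 to 5.21 in KO-labelled and from 5.26 to 5.59 in WT libraries at 12 h, against 5.95 to 6.34 in KO-labelled and 6.35 to 6.40 in WT libraries at 3 h. Of the markers of gamma-delta T, NKT and innate lymphoid cells, 6 of 10 were in the table and 2, Blk and Il7r, passed the filter. The mean level of the 6 ran from 2.28 to 2.54 in KO-labelled and from 2.42 to 2.69 in WT libraries at 12 h, against 2.92 to 3.25 in KO-labelled and 3.18 to 3.84 in WT libraries at 3 h. Il7r, which naive T cells also express, fell by 3.15 ± 0.35 in KO-labelled and fell by 3.66 ± 0.35 in WT cells (limma adjusted p = 7.94e-07 and 1.43e-07). Blk, which B cells also express, was called lower at 12 h in WT cells (-1.25 ± 0.32, limma adjusted p = 0.00292) and not in KO-labelled cells (-0.67 ± 0.32, limma adjusted p = 0.0760). The highest value of Zbtb16, which encodes the defining factor of NKT cells, was 1.70, and that of Sox13 was 2.84. Of 12 myeloid and dendritic markers 4 passed the filter, and these 4 were called lower at 12 h in both genotypes. Of 10 markers of CD8 T and NK cells 6 passed the filter. At 12 h 1 was called lower and 1 higher in KO-labelled cells, with 2 lower and 1 higher in WT cells. Over all libraries Cd8a ran from 4.09 to 5.98, Cd8b1 from 8.55 to 9.10 and Prf1 from 7.19 to 10.19. The part of these cells in the changes of the cytokine genes was not tested.

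**Figure D1:**
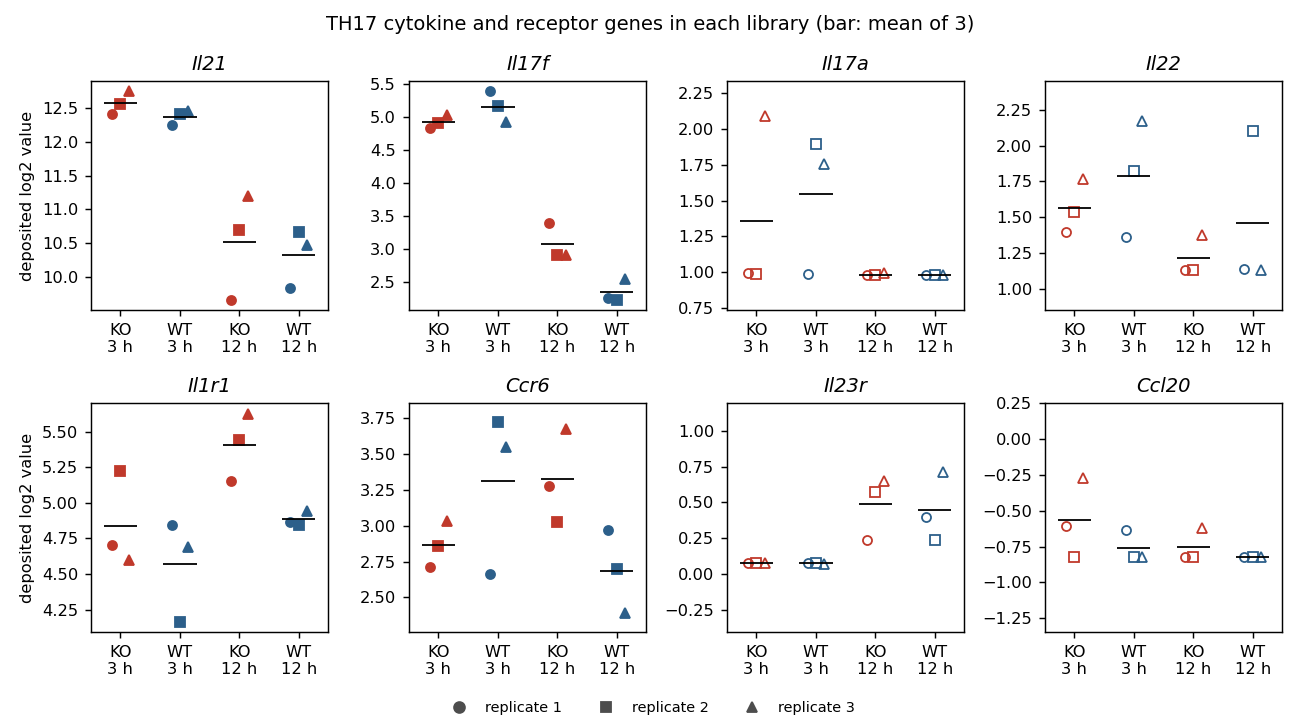
Deposited log2 value of each of the 8 genes (y axis, own scale per panel) in each of the 12 libraries (x axis, by group). Red marks KO-labelled and blue marks WT libraries, the shape gives the replicate number, the bar is the mean of 3, and open symbols mark genes below the filter. Il21 and Il17f are lower in all 12 h libraries than in all 3 h libraries, while Il17a, Il22, Il23r and Ccl20 stay below 2.2 in every library.

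Il1r1, the receptor chain that starts IL-1 signalling (chromosome 1, 40225080 to 40317257, plus strand), did not take part in the fall. Its KO-labelled values were 5.16, 5.44 and 5.63 at 12 h, against 4.70, 5.22 and 4.60 at 3 h. The WT values were 4.87, 4.84 and 4.94 at 12 h, against 4.85, 4.16 and 4.69 at 3 h. The times overlapped in KO-labelled cells, where the lowest 12 h library lay below the highest 3 h library, and in WT cells. The gene was called higher at 12 h in KO-labelled cells, by 0.57 ± 0.24 (limma adjusted p = 0.0442), and not in WT cells, with 0.32 ± 0.24 (limma adjusted p = 0.250; 0.13 without the libraries numbered 2). The call in KO-labelled cells was weak. It was lost without KO 3 h replicate 1 or 3, WT 3 h replicate 3, KO 12 h replicate 2 or 3, or any 1 WT 12 h library, where the adjusted p ran from 0.0505 to 0.150. It was also lost with the replicate number as a block (0.0547), in a fit of the KO-labelled groups alone (0.0540), without the filter (0.0804) and with libraries shifted to a common median (0.111).

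Ccr6 (chromosome 17, 8236043 to 8257141, plus strand) had the lowest mean of the tested members, 3.05, just inside the filter, with the next member down, Il22, at a mean of 1.50. The group mean of Ccr6 was above 3 only in KO 12 h (3.33) and WT 3 h (3.31). It was 2.87 in KO 3 h and 2.69 in WT 12 h, so Ccr6 passed the filter through the former groups. It stood at 3.28, 3.03 and 3.68 at 12 h and at 2.71, 2.86 and 3.03 at 3 h in KO-labelled cells. In WT cells it stood at 2.97, 2.70 and 2.39 at 12 h and at 2.66, 3.72 and 3.55 at 3 h. The mean was thus higher at 12 h in KO-labelled cells (0.46 ± 0.29, limma adjusted p = 0.179) and lower at 12 h in WT cells (-0.63 ± 0.29, limma adjusted p = 0.0716), with neither difference called. The size of the WT difference depended on single 3 h libraries. Without WT 3 h replicate 1, the lowest of its group, it was -0.95 (limma adjusted p = 0.00769). Without replicate 2 it was -0.42 (limma adjusted p = 0.270), and without replicate 3 it was -0.51 (limma adjusted p = 0.200).

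Between genotypes none of the 4 tested members was called at 3 h. In KO-labelled and WT cells the means were 12.58 ± 0.17 and 12.38 ± 0.11 for Il21, 4.93 ± 0.10 and 5.16 ± 0.24 for Il17f, 4.84 ± 0.34 and 4.57 ± 0.36 for Il1r1, and 2.87 ± 0.16 and 3.31 ± 0.57 for Ccr6 (SD, n = 3). The values of KO-labelled and WT cells overlapped for each of the 8 members. Il17f differed by -0.23 ± 0.23 with a 95% interval of -0.71 to 0.24, and Il21 by 0.20 ± 0.28 with an interval of -0.39 to 0.79. Il1r1 differed by 0.27 ± 0.24 with an interval of -0.23 to 0.78, and Ccr6 by -0.44 ± 0.29 with an interval of -1.07 to 0.18. The limma adjusted p of the 4 ran from 0.757 to 0.916, and 0 had an unadjusted p under 0.05. Of all genes tested limma called 1.05% at this time, and 11.6% had values that did not overlap between the genotypes. The sizes depended on single libraries. Il17f was -0.12 without WT 3 h replicate 1 and -0.35 without WT 3 h replicate 3. Il1r1 was 0.081 without KO 3 h replicate 2, 0.071 without WT 3 h replicate 2 and 0.41 without WT 3 h replicate 1. Ccr6 was -0.77 without WT 3 h replicate 1 and -0.24 without WT 3 h replicate 2. Il21 was 0.11 without KO 3 h replicate 3. Without the 4 libraries numbered 2 the sign for Il1r1 turned (-0.12, limma adjusted p = 0.948), and Ccr6 was -0.23.

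At 12 h the KO-labelled libraries held more Il17f, Il1r1 and Ccr6 than the WT libraries, without overlap, though none of these differences passed the adjusted threshold. For Il17f the KO-labelled values of 3.39, 2.91 and 2.90 were all above the WT values of 2.25, 2.23 and 2.54. The WT values here include the lowest of the gene. The difference was 0.73 ± 0.23, with a 95% interval of 0.25 to 1.21, and its limma adjusted p was 0.259 (unadjusted 0.00523). Il1r1 was higher by 0.52 ± 0.24, with an interval of 0.02 to 1.03 (limma adjusted p = 0.746, unadjusted 0.0422). Ccr6 was higher by 0.64 ± 0.29, with an interval of 0.02 to 1.27 (limma adjusted p = 0.763, unadjusted 0.0454). Il21 overlapped between the genotypes, with means of 10.52 ± 0.79 in KO-labelled and 10.32 ± 0.44 in WT cells (SD, n = 3), and differed by 0.20 ± 0.28, with an interval of -0.39 to 0.79 (limma adjusted p = 1.00).

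Thus 3 of the 4 tested members, and 3 of all 8, stood higher in KO-labelled cells without overlap at 12 h. Of all genes tested 5.37% did so, and 12.8% did not overlap in either direction, against 11.6% in either direction at 3 h. The share for all 8 has no like background, as genes below the filter are left out. Ccr6, 1 of the 3, passed the filter in part through its KO 12 h values. By adjusted p limma called 0 of the 4 members, with 3 at an unadjusted p under 0.05, against 0.667% of all genes called. Without the filter the unadjusted p was 0.00412 for Il17f, 0.0520 for Il1r1 and 0.0532 for Ccr6, and the intervals of Il1r1 (-0.0056 to 1.05) and Ccr6 (-0.011 to 1.29) crossed 0. The B cell markers stood apart by genotype as well. Their mean level ran from 4.91 to 5.21 in KO-labelled and from 5.26 to 5.59 in WT libraries at 12 h, and 0 of the 12 differences were positive (median -0.22), with 0 of 12 called. At 3 h they were apart too, at 5.95 to 6.34 in KO-labelled and 6.35 to 6.40 in WT libraries. There 1 of the 12 differences was positive (median -0.19). The part of the B cell transcripts in the differences of Il17f, Il1r1 and Ccr6 was not tested. The direction for Il17f, Il1r1 and Ccr6 held in each of the 20 alternatives run, in which Il17f ranged from 0.57 to 0.83, Il1r1 from 0.41 to 0.65 and Ccr6 from 0.47 to 0.80. Much of this was fixed in advance. A change of filter, prior, block or 3 h libraries leaves the 12 h difference as it is. Values without overlap also keep their sign when a 12 h library is left out. Il21 rested on single libraries. Without KO 12 h replicate 1, at 9.66 the lowest of its group, its difference was 0.63, and without KO 12 h replicate 3 it was -0.14. Without WT 12 h replicate 1 it was -0.05.

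**Figure D2:**
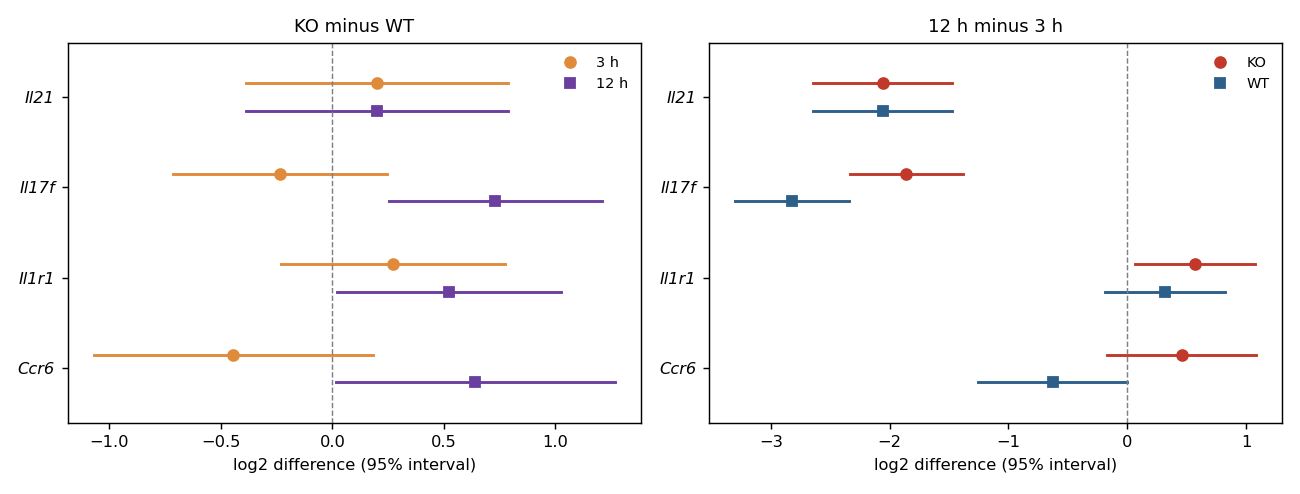
Log2 difference (x axis) of the 4 tested members (y axis), with 95% intervals from limma. The left panel shows KO minus WT at 3 h and at 12 h, and the right panel 12 h minus 3 h in KO-labelled and in WT cells. At 12 h the intervals for Il17f, Il1r1 and Ccr6 lie above 0, by 0.02 for Il1r1 and Ccr6, while none of the 3 passed the threshold adjusted over all genes.

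**Figure D3:**
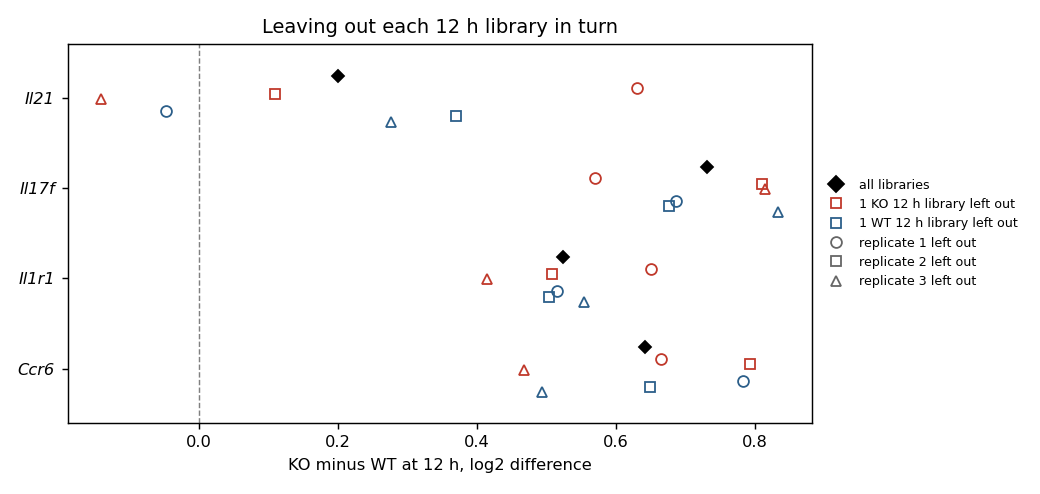
KO minus WT log2 difference at 12 h (x axis) for the 4 tested members (y axis), with all libraries (diamond) and with each 12 h library left out in turn (open symbols, coloured by the group of the library left out). Il17f, Il1r1 and Ccr6 stay above 0 in each case shown, as values without overlap must, and Il21 falls below 0 without KO replicate 3 or WT replicate 1.

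Whether the genotype difference itself changed between the times was tested as the difference between the KO against WT differences at 12 h and at 3 h. It was 0.97 ± 0.32 for Il17f (limma adjusted p = 0.875, unadjusted 0.00818) and 1.09 ± 0.42 for Ccr6 (limma adjusted p = 0.998, unadjusted 0.0196). For Il1r1 it was 0.25 ± 0.33 and for Il21 0.00 ± 0.39 (limma adjusted p = 0.998 and 1.00). Without the 4 libraries numbered 2 the value was 0.61 for Il1r1 and 0.054 for Il21, and that for Il1r1 ran from 0.11 to 0.45 with 1 library left out. Limma called 0 of the 4 members and 0% of all genes in this comparison, where 497 genes had an unadjusted p under 0.05. Of the groups, Il17f ordered WT 3 h at 5.16, KO 3 h at 4.93, KO 12 h at 3.07 and WT 12 h at 2.34, and only the 3 h pair overlapped. Il21 ordered KO 3 h at 12.58, WT 3 h at 12.38, KO 12 h at 10.52 and WT 12 h at 10.32, and both same-time pairs overlapped. The order for Il1r1 was KO 12 h at 5.41, WT 12 h at 4.88, KO 3 h at 4.84 and WT 3 h at 4.57, in which each neighbouring pair after the first overlapped.

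Il17a, Il22, Il23r and Ccl20 lay at the low end of the table, where several libraries of a gene shared a nearly identical lowest value. Il17a (chromosome 1, 20730905 to 20734496, plus strand) was within 0.03 of its lowest value, 0.98, in 9 of 12 libraries. The exceptions were all at 3 h: KO replicate 3 at 2.09 and WT replicates 2 and 3 at 1.90 and 1.76. No 12 h library of either genotype rose above 0.99. By an exact permutation test within genotype, two-sided, Il17a differed by -0.47 between 12 h and 3 h (p = 0.0100, not adjusted, 1 of 8 such tests on the 4 genes). That p also ranks small offsets among libraries at the lowest level, and it rose to between 0.0600 and 0.0900 when any 1 of the 12 h libraries was left out. The genotype difference was -0.09 (exact permutation p = 0.905).

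Il23r (chromosome 6, 67422932 to 67491855, minus strand) showed the opposite course, also at the low end. It stood at 0.24, 0.58 and 0.65 in KO-labelled and at 0.40, 0.24 and 0.71 in WT cells at 12 h, against 0.07 to 0.08 in all 6 libraries at 3 h. Every 12 h library lay above every 3 h library. The time difference was 0.39, and its exact permutation p of 0.0050 is the smallest that the 400 arrangements allow. KO-labelled and WT cells overlapped, with a genotype difference of 0.02 (exact permutation p = 0.835). The partner chain of the receptor, Il12rb1, was called higher at 12 h in KO-labelled cells by 1.50 ± 0.08 and in WT cells by 1.28 ± 0.08 (limma adjusted p = 3.86e-10 and 2.25e-09).

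Il22 (chromosome 10, 118204942 to 118210047, plus strand) was at 1.39, 1.54 and 1.76 in KO-labelled and at 1.36, 1.82 and 2.17 in WT cells at 3 h. At 12 h it was at 1.13, 1.13 and 1.37 in KO-labelled and at 1.13, 2.10 and 1.13 in WT cells, where 4 of the 6 libraries were within 0.03 of its lowest value. The time difference was -0.34 (exact permutation p = 0.125) and the genotype difference -0.23 (exact permutation p = 0.285). Without WT 12 h replicate 2 the time difference was -0.50 (exact permutation p = 0.0200). A near-identical copy, Iltifb, lies on the same chromosome at 118289629 to 118295038, and the counting could split reads between the copies, so the values of Il22 are uncertain. Iltifb ranged from -0.61 to -0.03.

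Ccl20 (chromosome 1, 83116766 to 83119167, plus strand) was within 0.03 of its lowest value, -0.82, in 8 of 12 libraries. Above it at 3 h were KO replicates 1 and 3 at -0.60 and -0.27 and WT replicate 1 at -0.63, and at 12 h KO replicate 3 at -0.62. The genotype difference was 0.13 (exact permutation p = 0.185) and the time difference -0.13 (exact permutation p = 0.105).

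The regulators of the TH17 programme, a list chosen with earlier results of these data known, held several genes that differed between the genotypes. Of 20 regulators 8 were called higher at 12 h in KO-labelled cells, 0 lower and 12 not called, with a median difference of 0.18 against -0.01 over all genes. Among all 12436 genes tested 62 were called higher and 21 lower at 12 h. As the list was chosen with results known, its count is a description and no test. Calls of single regulators were not checked in the alternatives. In these the count of all genes called at 12 h ran from 22 to 167, against 83 in the main analysis. Maf, a factor that drives Il21 in T cells, was at 9.90 ± 0.25 in KO-labelled and 8.60 ± 0.22 in WT cells (SD, n = 3), a difference of 1.30 ± 0.16 (SE, limma adjusted p = 0.000672). Ahr, the ligand-activated receptor needed for Il22 in TH17 cells, was at 9.21 ± 0.41 in KO-labelled and 7.89 ± 0.31 in WT cells, a difference of 1.32 ± 0.19 (limma adjusted p = 0.00222). Rora, which encodes RORα, was at 10.78 ± 0.36 in KO-labelled and 9.62 ± 0.13 in WT cells, a difference of 1.16 ± 0.18 (limma adjusted p = 0.00347). Runx1, Ikzf3, Rbpj and Bhlhe40 were higher by 0.50 ± 0.06, 0.46 ± 0.07, 0.38 ± 0.07 and 0.32 ± 0.05 (limma adjusted p from 0.000291 to 0.0119). The KO-labelled and WT values of these 7 genes did not overlap.

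At 3 h 37 of the 12436 genes tested were called higher in KO-labelled cells and 93 lower. Of the 20 regulators 4 were called higher and 0 lower, with a median of 0.09. Runx1, Rbpj and Bhlhe40 were among them, higher by 0.31 ± 0.06, 0.30 ± 0.07 and 0.26 ± 0.05 (limma adjusted p from 0.0197 to 0.0477). Whether these genes keep their calls in the alternatives was not checked. The count of all genes called at 3 h ran there from 9 to 261, against 130 in the main analysis. Over time most regulators were lower at 12 h, as Il21 and Il17f were. Of the 20, 15 were called lower and 3 higher at 12 h in KO-labelled cells, and 17 lower and 3 higher in WT cells. Among all genes 33.6% were called lower and 34.3% higher in each genotype. Fosl2, an AP-1 family factor, fell by 3.53 ± 0.08 in KO-labelled and fell by 3.57 ± 0.08 in WT cells. Rora fell by 1.44 ± 0.18 in KO-labelled and fell by 2.31 ± 0.18 in WT cells.

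Chains that pair with the members and ligands that bind them showed no genotype call. Of 27 such genes 19 were tested, and limma called 0 at 3 h and 0 at 12 h, with medians of -0.02 and -0.03. Of all genes tested it called 1.05% at 3 h and 0.667% at 12 h, so 0 of 19 is near that share. With time 12 were called lower and 4 higher in KO-labelled cells, and 12 lower and 3 higher in WT cells, beside 33.6% lower and 34.3% higher among all genes in each. Il6st, the signalling chain of the IL-6 receptor, fell by 2.19 ± 0.09 in KO-labelled and fell by 2.33 ± 0.09 in WT cells. Il21r, the receptor of IL-21, fell by 1.53 ± 0.08 in KO-labelled and fell by 1.63 ± 0.08 in WT cells. Il1a, one of the ligands of Il1r1, rose by 2.78 ± 0.31 in KO-labelled and by 3.58 ± 0.31 in WT cells at 12 h. Il22ra1, the receptor chain for IL-22 on epithelial cells, was listed at 0 in every library.

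Across the 12 libraries the genes whose values ran most like Il17f were Tnip2, Hcst and Zfp553 (Pearson r = 0.988, 0.988 and 0.987). For Il21 they were Hic2, Ythdc1 and Camsap2 (r = 0.978, 0.977 and 0.977). These 6 genes share with Il17f and Il21 a lower mean at 12 h than at 3 h in both genotypes. For Il1r1 they were Ppfibp1, Scd2 and Inpp5e (r = 0.916, 0.887 and 0.858), and for Ccr6 they were Map3k6, Pdlim4 and Prrt2 (r = 0.883, 0.879 and 0.851). Between Il17f and Il21 r was 0.887. These are descriptions over libraries that share 4 groups and carry no test.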

How the data were processed

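RNA sequencing was done on 12 libraries, 3 in each of 4 groups set by the sample titles. The deposited table holds log2 values that the authors normalised. Neither the transform nor the annotation is given in the sources used here. The submitters' processing notes list mm10 as the build and, without versions, the tools STAR, Trim Galore, DESeq2 and featureCounts. All 12 columns matched 1 title each, and 0 columns were unmapped. Of 24538 rows 5663 were at 0 in every library. Raw counts were not used here, so depth is unknown and no counting interval was computed.

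The values were fitted in R 4.3.3 with limma 3.58.1. One mean was fitted per group over all 12 libraries (lmFit, eBayes with trend), for 12436 genes with a mean of at least 3, and contrasts were two-sided with Benjamini-Hochberg adjustment over these genes. Calls needed an adjusted p below 0.05. Members below the filter were tested by exact permutation of labels within time or genotype (400 arrangements), and genotypes also within same-numbered pairs (64 arrangements), an alternative chosen after seeing the data. The fit was tested on simulated data first. Folds are 2 to the power of a log2 difference. P-values measure the spread between libraries, which no label ties to separate animals. Gene positions are from GENCODE M21 on GRCm38.

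The replicate numbers were checked as pairs from the deviations of each library from its group mean. Same-numbered KO and WT libraries correlated at 0.194, 0.402 and 0.347 at 3 h and at 0.174, 0.500 and 0.186 at 12 h. Each exceeded the correlations with other numbers, most closely for number 3 at 12 h (0.186 against 0.150). The deviations in a group are taken from a shared mean, so these correlations depend on each other. They do not establish that the numbers pair the genotypes. In KO across the times number 2 correlated with itself at 0.368, against -0.232 and -0.184 with the other numbers. Numbers 1 and 3 correlated at 0.0637 and 0.0892, below 0.110 and 0.186 with another number. In WT the same numbers correlated at 0.211, 0.432 and 0.207, above those with other numbers. The libraries numbered 2 are those with Y-linked expression, and its part in these correlations was not tested.

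The members, lists and tests were chosen with earlier results of these data known. Named were the 8 members, list genes called between genotypes, at most 4 list genes per direction for the times, and the 3 genes most correlated with each tested member. Part of what this rule picks is not reported here but enters the counts. Alternatives for the tested members were other filters, no trend, the compared groups alone, the replicate block and shifts to a common median. Quantile normalization, array weights, each library left out and the 4 libraries numbered 2 left out were used as well. Members below the filter had only the median shift, each library left out and, for genotypes, the exchange within pairs.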

Additional observations from a re-analysis of the deposited data

How the results depend on the processing

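The falls of Il21 and Il17f with time were called in each alternative in which the gene was tested, 21 for Il21 and 20 for Il17f, in both genotypes. No member was called between the genotypes in any alternative. Calls of single list genes were not checked in the alternatives. With the replicate block, which treats libraries of the same number as a set, Il17f at 12 h had a limma adjusted p of 0.277. The other tested members had 0.704 to 1.00, and the block ended 1 member call, that of Il1r1 with time in KO. Ccr6 became called lower with time in WT with a shift to a common median (-0.73), with array weights (-0.90) and without WT 3 h replicate 1 (-0.95). With KO and WT exchanged within same-numbered pairs, chosen after seeing the data, the genotype differences of the genes below the filter had exact permutation p from 0.219 to 0.906. The shift to a common median moved every 12 h minus 3 h difference by -0.13 in KO and -0.11 in WT.

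A mean of at least 5 removed all tested members but Il21 and left 1 member called with time in KO and 1 in WT. The count of genes called at 3 h, 130 in the main analysis, was 14 without the filter, 9 without the trend, 32 on the compared groups alone, 200 with the replicate block and 54 with array weights, and 22 to 261 with 1 library left out. At 12 h the count was 83, and it was 40 without the filter, 39 without the trend, 167 with array weights and 22 without the libraries numbered 2, and it ran from 49 to 102 with 1 library left out. For the difference of differences the count of 0 became 3 without the filter, 3 with the replicate block and 2 with quantile normalization, and 0 to 28 with 1 library left out.

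Signs turned only for differences that were not called. Il1r1 at 3 h was -0.12 without the libraries numbered 2. Il21 at 12 h ran from -0.14 to 0.63 with 1 library left out. Its difference of differences was -0.023 with a shift to a common median and ran from -0.34 to 0.43 with 1 library left out. The genotype difference of Il23r ran from -0.033 to 0.086 with 1 library left out. With time, Il17a ran from -0.61 to -0.29 and its p crossed the threshold in 6 of these tests, Il22 ran from -0.50 to -0.25, and Ccl20 was -0.25 with a shift to a common median (p = 0.0100, exact permutation). The causes were not tested. The low level of Il17a, Il22, Il23r and Ccl20 limits what could be seen, and depth is unknown.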

Other observations

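Of 28 other genes linked to TH17 cells 22 were tested, and 2 were called higher and 1 lower in KO-labelled cells at 3 h, with 2 higher and 0 lower at 12 h. Limma called 1.05% of all genes tested at 3 h and 0.667% at 12 h. The chemokine gene Ccl1 was higher by 1.72 ± 0.34 at 3 h and by 1.69 ± 0.34 at 12 h, and Ccr8, which encodes its receptor, by 1.37 ± 0.10 and 0.81 ± 0.10 (limma adjusted p from 3.01e-06 to 0.0288). Tnfsf8, the CD30 ligand, differed by -0.43 ± 0.08 at 3 h and was called lower (limma adjusted p = 0.0197). At 12 h against 3 h, 15 of the 22 were called lower and 2 higher in KO-labelled cells, and 17 lower and 3 higher in WT cells, beside 33.6% lower and 34.3% higher among all genes in each genotype. Sgk1, a salt-sensing kinase that promotes TH17 cells, fell by 2.46 ± 0.11 in KO-labelled and fell by 2.54 ± 0.11 in WT cells. Tnf fell by 1.88 ± 0.11 in KO-labelled and fell by 1.99 ± 0.11 in WT cells.

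Among genes that respond to IL-6 and STAT3 24 were tested. Of these 20 were called lower at 12 h in KO-labelled cells and 21 in WT cells, and 2 were called higher in each. The shares over all genes were 33.6% lower and 34.3% higher in each genotype. Socs1, a feedback inhibitor of JAK signalling, fell by 2.73 ± 0.19 in KO-labelled and fell by 3.31 ± 0.19 in WT cells. The kinase gene Pim2 rose by 2.78 ± 0.13 in KO-labelled and by 2.40 ± 0.13 in WT cells. Between the genotypes Pim2 and Ifngr1, a chain of the interferon gamma receptor, were called lower in KO-labelled cells at 3 h (-0.61 ± 0.13 and -1.35 ± 0.28, limma adjusted p = 0.0389 and 0.0319). At 12 h Cish and Gadd45g were called higher (0.44 ± 0.07 and 1.38 ± 0.20, limma adjusted p = 0.00678 and 0.00244).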
